A study of Oryza sativa with 18 samples.

Results

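The genes described here are those that make and break down abscisic acid, the hormone that holds seeds dormant and that falls as a seed germinates. They are 3 of the 3149 genes that the deposited tables list at any time, and they were chosen by gene identifier: NCED3 (LOC_Os03g44380), NCED5 (LOC_Os12g42280) and ABA8OX3 (LOC_Os09g28390). Their counts were taken at each time at which a table lists them, which is 3 h and 12 h for NCED3, 3 h for NCED5 and 6 h for ABA8OX3. Each table compares embryos of the csa mutant with those of a wild type line, 9522, at 1 time of imbibition, the uptake of water that starts germination. A gene enters a table only where the authors' false discovery rate (FDR) was at most 0.05 and the absolute log2 fold change at least 1, so the times at which a member is missing give no value for it here.

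The csa mutant carries a defect in CSA (CARBON STARVED ANTHER), the gene of a MYB transcription factor of the R2R3 class that is needed for sugar to reach the anther. Dehulled rice (Oryza sativa) seeds of both genotypes were sterilized and kept in a half-strength salt medium at 28 °C under 16 h of light and 8 h of darkness, with no hormone or other treatment in any group. Total RNA was sequenced at 3 h, 6 h and 12 h, with 3 samples per genotype and time, 18 in all. The labels give the tissue as embryo and the source as seed, and each extraction took 5 seeds, so every sample is a pool. They name no csa allele and do not say whether seeds of different replicates had separate origins, so p-values reflect a spread that may be technical. At 12 h, 1 library (replicate 3 of the wild type) has a genotype field that names csa, against its title and description, which were followed here.

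Abscisic acid is made from carotenoids. Enzymes of the plastid build the carotenoids and turn them into epoxycarotenoids, 9-cis-epoxycarotenoid dioxygenases (NCED enzymes) cleave these to xanthoxin in what is widely held to be the rate-limiting step, and xanthoxin is converted to the hormone in the cytosol. The main route of breakdown is hydroxylation at the 8′ position by cytochrome P450 enzymes of the CYP707A family, to which ABA8OX3 belongs. In cereal grains and in Arabidopsis, the balance of NCED and CYP707A activity is known to set the hormone level during imbibition and with it the readiness to germinate.

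Identities were taken from the tables and from RefSeq. NCED3 lies on chromosome 3 (Os03g0645900), is annotated in the tables as a carotenoid oxygenase family protein, and carries the synonym NCED3 in RefSeq. NCED5 lies on chromosome 12 (Os12g0617400). The tables annotate it as Viviparous-14, the name of the maize gene from which an NCED enzyme was first described, and RefSeq lists no synonym for it. ABA8OX3 lies on chromosome 9 (Os09g0457100), is annotated as a cytochrome P450 family protein, and has the RefSeq synonyms ABA8OX3 and CYP707A7.

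Depth per library is unknown, because the tables hold the listed genes only. Relative depth within each time was recovered from the deposited fold changes. The resulting scaling factors lay between 0.919 and 1.10, and a scaled count below is a raw count divided by the factor of its library. In csa embryos at 6 h, CSA itself stood at 0.383 times its wild type level (raw counts 92, 81 and 201 against 310, 305 and 380), and it was not listed at the other times. The labelled tissue could be checked only on listed genes. The embryo gene EM1 had between 6179 and 19220 raw counts in the 6 libraries at 6 h. Endosperm transcripts were present too. The 4 listed glutelin and prolamin genes at 3 h summed to between 5122 and 6664 scaled counts in csa and between 2115 and 2592 in wild type libraries, none of them at 0 in any library. The 2 listed at 6 h summed to between 319.7 and 517 against 165 and 207, and the single one at 12 h stood at 1717 to 4023 against 461 and 1016. These markers therefore moved in the same direction as the NCED genes described next, and their part in those results was not tested. The listed oil body genes, with EM1 at 6 h only, mark the embryo and were higher in csa as well. They were 5 of 5 at 3 h and 4 of 4 at 6 h. Over all listed entries, 746 of 1050 at 3 h and 1395 of 2388 at 6 h were higher, so nothing is read from these counts. EM1 is also an abscisic acid response gene. In bulk samples such as these, more cells of a type and more RNA per cell cannot be told apart.

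Both NCED genes were higher in csa embryos at 3 h. For NCED5, csa replicates 1 to 3 held 209, 337 and 224 raw counts, against 44, 42 and 45 in wild type replicates 1 to 3. The lowest mutant library was 4.83 times the highest wild type library after scaling, so the genotypes were well apart. A lack of overlap was usual at this time: of the 746 genes listed as higher in csa, 35 (4.69%) overlapped. Scaled counts averaged 265 ± 79.3 in csa and 42.6 ± 1.69 in wild type (SD, n = 3), a 6.21-fold difference and a log2 fold change of 2.64 ± 0.25 (SE). In the authors' deposited table the FDR of NCED5 was 1.52e-19, which placed it 9th by p-value among the 1050 listed entries.

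For NCED3 at 3 h, the csa libraries held 104, 192 and 92 raw counts and the wild type libraries 24, 23 and 26. Here too all mutant libraries lay above all wild type libraries, with csa replicate 2 the highest for both genes. Scaled counts averaged 134 ± 60.1 in csa and 23.7 ± 1.44 in wild type (SD, n = 3), a 5.63-fold difference and a log2 fold change of 2.49 ± 0.38 (SE). The authors' deposited table gives NCED3 an FDR of 1.41e-10 at 3 h.

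**Figure D1:**
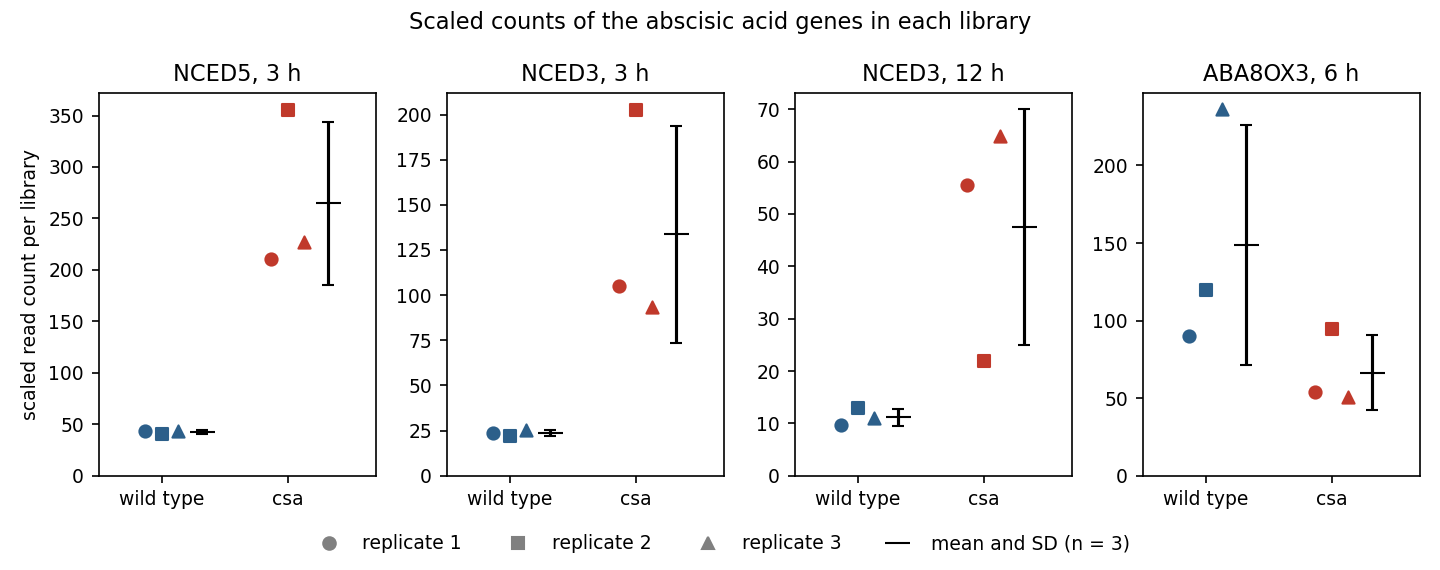
Scaled read count per library (vertical axis, starting at 0, with its own scale in each panel) of NCED5 and NCED3 at 3 h, NCED3 at 12 h and ABA8OX3 at 6 h in wild type (blue) and csa (red). Points are libraries, marked by replicate number, and the black bar gives the mean with its SD (n = 3). The NCED panels show no overlap between genotypes, whereas in the ABA8OX3 panel csa replicate 2 lies above wild type replicate 1.

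Of all 21397 genes tested at 3 h, 3.49% were called higher in csa and 1.42% lower, so a call was uncommon at this time. The members were chosen with these calls known, and nothing is read from their number. Within the 746 higher genes, the median log2 fold change was 1.41, with the middle 50% of genes between 1.18 and 1.83. NCED5 ranked 48th and NCED3 62nd of the 746 by fold change, above 93.6% and 91.7% of them.

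The spread of the NCED counts differed between genotypes. In wild type embryos at 3 h the SD of 1.69 for NCED5 and of 1.44 for NCED3 was below the counting error alone, 6.52 and 4.87 counts for these means. In csa embryos the SD was 79.3 and 60.1, against counting errors of 16.3 and 11.6. The coefficient of variation of csa libraries was 30.0% for NCED5 and 44.9% for NCED3, beside a median of 30.8% over the 746 higher genes. Much of it came with csa replicate 2, which was the highest csa library in 68.8% of those genes. Over all listed genes its median distance from the rest of its group was 0.547 log2 units, where the other 5 libraries lay between 0.249 and 0.451. When the listed genes were refitted with edgeR and csa replicate 2 left out, the log2 fold change was 2.36 for NCED5 and 2.06 for NCED3, and both calls were kept.

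The NCED5 gene gave more reads than NCED3 in every library at 3 h. Per kilobase of RefSeq gene span, which is 2490 bases for NCED5 and 2543 for NCED3, NCED5 stood at 17.1 ± 0.68 scaled counts in wild type and NCED3 at 9.33 ± 0.56 (SD, n = 3). In csa these levels were 106 ± 31.9 and 52.5 ± 23.6. The NCED3 count was 54.5%, 54.8% and 57.8% of the NCED5 count in the wild type libraries and 49.8%, 57.0% and 41.1% in the csa libraries. Of the csa values, 2 lay below all wild type values and 1 within their range. The mean log2 ratio of NCED3 to NCED5, which is free of library scaling, was 0.19 ± 0.14 (SE) lower in csa. An exact permutation test gave p = 0.3 (two-sided, n = 3 per group), but with 3 samples against 3 it cannot go below 0.1, so it could not have passed, and whether the ratio differed is not settled.

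**Figure D2:**
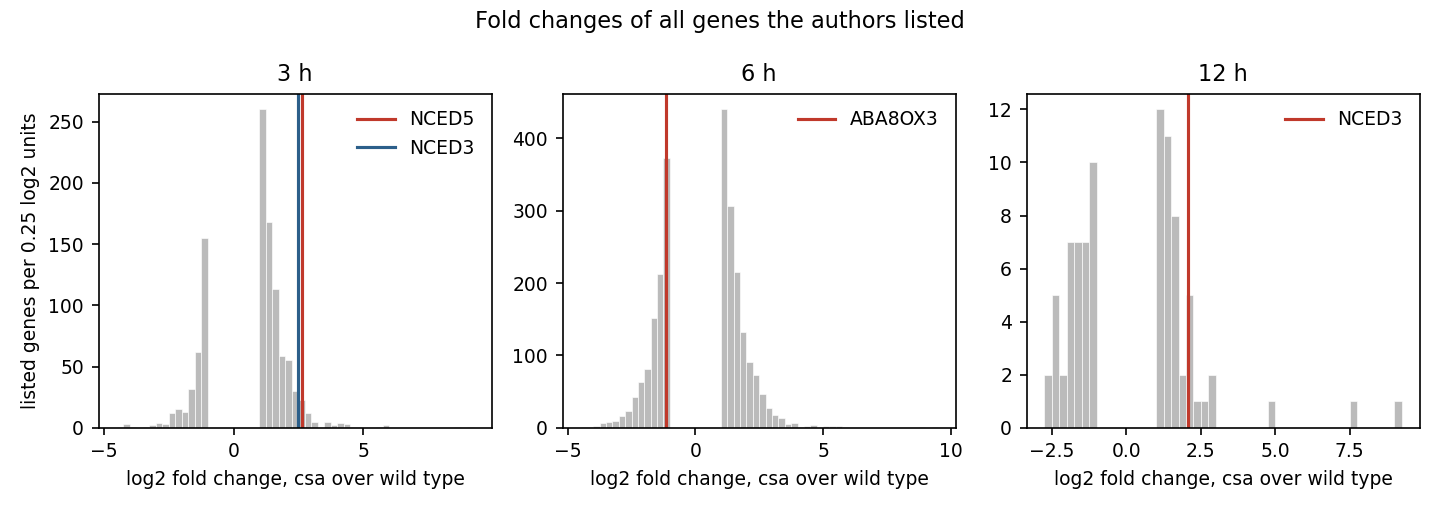
Number of listed genes (vertical axis, per 0.25 log2 units) by log2 fold change, csa over wild type (horizontal axis), at 3 h, 6 h and 12 h, with a vertical line at each abscisic acid gene listed at that time. The gap around 0 is the authors' fold change threshold of 1. The NCED genes lie in the upper part of the higher genes at 3 h and 12 h, and ABA8OX3 lies close to the threshold at 6 h.

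To see which genes ran most like the NCED pair, log2(scaled count + 1) profiles over the 6 libraries at 3 h were centred on each gene's own mean and compared by root mean square distance. Since the profiles hold the difference between genotypes as well as that between replicates, genes with a like fold change score as near. Among the 1049 other entries, the nearest to NCED3 was SDR4 (LOC_Os07g39700), a regulator of seed dormancy annotated as a zinc finger protein of resistance to pre-harvest sprouting, at a distance of 0.107 log2 units. The median distance over all entries was 0.72. Raw counts of SDR4 in the csa libraries were 465, 955 and 450, against 121, 136 and 129 in the wild type, the same order of csa replicate 2 over the other 2 as for NCED3. LOC_Os06g05440, annotated only by a cDNA clone, came next at 0.133, and NCED5 was 3rd at 0.173.

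The nearest of 1049 entries to NCED5 was in turn NCED3. LOC_Os01g05585, described as a hypothetical gene in the tables, with the metallothionein synonym MT2A in RefSeq for the gene number beside it, followed at 0.185 with 222, 336 and 242 raw counts in csa against 55, 62 and 56. SDR4 was 3rd at 0.228. The median distance of all entries from NCED5 was 0.783. SDR4 and the dehydrin gene RAB16A had log2 fold changes of 2.36 ± 0.41 and 1.58 ± 0.27 (SE) at 3 h. RAB16A is known as an abscisic acid response gene. EM1, another response gene, stood at 1.18 ± 0.19 at 6 h.

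**Figure D3:**
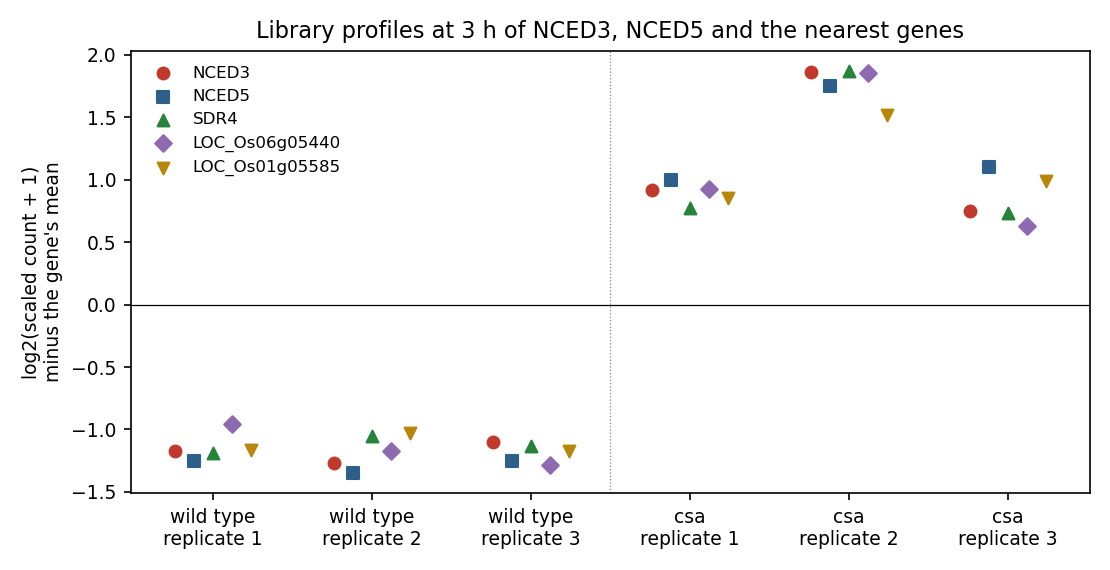
Library profiles at 3 h of NCED3, NCED5 and the genes nearest to them, as log2(scaled count + 1) minus the gene's own mean over the 6 libraries (vertical axis), for each library (horizontal axis). Each marker is 1 gene in 1 library. All 5 genes lie below their mean in the wild type libraries and above it in the csa libraries, and all 5 are highest in csa replicate 2.

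At 6 h neither NCED gene was listed, and ABA8OX3 was lower in csa. The csa libraries held 52, 90 and 53 raw counts of it and the wild type libraries 89, 115 and 261. Values of the genotypes overlapped, since csa replicate 2 lay above wild type replicate 1 after scaling, and wild type replicate 3 stood well above the other 5 libraries. Scaled counts averaged 66.5 ± 24.4 in csa and 149 ± 77.6 in wild type (SD, n = 3), which is 0.447 times the wild type level and a log2 fold change of -1.16 ± 0.53 (SE). In the authors' deposited table the FDR of ABA8OX3 was 0.0203. An exact permutation test of its mean log2 scaled count gave p = 0.2 (two-sided, n = 3 per group, smallest p attainable 0.1).

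This call was among the weaker ones of its time. At 6 h, 4.30% of the 23117 genes tested were called lower in csa and 6.03% higher. ABA8OX3 ranked 837th by FDR and 739th by fold change of the 993 lower genes, whose median log2 fold change was -1.38. Overlap between genotypes was rare in that group, with 33 of the 993 genes (3.32%). Wild type replicate 3 was the highest wild type library in 40.2% of the lower genes, and so held the top place there in fewer genes than replicate 2, with 50.7%. With wild type replicate 3 left out, the log2 fold change was -0.66 and the edgeR refit lost the call. It was also lost without csa replicate 1, at -1.03, and without csa replicate 3, at -1.003.

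The genes closest in profile to ABA8OX3 at 6 h were likewise highest in wild type replicate 3. The nearest of 2387 other entries was a protein kinase gene, LOC_Os01g48390, at a distance of 0.17 log2 units, with 22, 34 and 24 raw counts in csa against 36, 56 and 89. A MYB domain gene, LOC_Os05g04820, followed at 0.236 with 12, 18 and 12 against 20, 36 and 48. The potassium channel gene LOC_Os07g01810 (KCO2 in RefSeq) was 3rd at 0.251. The median distance of all entries was 1.26.

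At 12 h NCED3 was again higher in csa. The csa libraries held 51, 24 and 62 raw counts and the wild type libraries 10, 13 and 11, so every mutant library lay above every wild type library, with csa replicate 2 the lowest mutant library at this time. Neither trait was particular to NCED3. Of the 45 genes listed as higher at 12 h, 0 overlapped, and csa replicate 2 was the lowest csa library in 55.6% of them. Scaled counts averaged 47.4 ± 22.5 in csa and 11.2 ± 1.63 in wild type (SD, n = 3), a 4.24-fold difference and a log2 fold change of 2.08 ± 0.41 (SE). The authors' deposited table gives an FDR of 0.0325. The wild type SD was again below the counting error of 3.34 counts for its mean, and the csa SD above the 6.89 counts for its own.

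Few genes differed at 12 h. Of at least 21239 genes tested, 0.212% were called higher in csa and 0.188% lower. NCED3 ranked 11th of the 45 higher genes by fold change and 36th by FDR, and its mean count was above that of only 9.41% of the 85 listed entries, so this value rests on few reads. The call was lost in the edgeR refit without csa replicate 3, at a log2 fold change of 1.77, and without wild type replicates 1, 2 or 3, at 1.97, 2.18 and 2.05. The last of these is the library with the conflicting genotype field, and its 11 reads of NCED3 were like those of the other wild type libraries. At this time csa replicate 2 again lay farthest from its group, at a median of 0.565 log2 units, and with it left out the value was 2.42 and the call was kept. Lost calls were common at 12 h, since the refit with all libraries kept 39 of the 85 listed entries. It kept 24 without csa replicate 3, 28, 20 and 26 without wild type replicates 1, 2 and 3, and 13 without csa replicate 2.

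The size of the NCED3 difference at 3 h and at 12 h differed by less than its error. It was 0.41 ± 0.56 log2 units (SE) smaller at 12 h, with a range of 2 SE from -1.53 to 0.71 for the later minus the earlier time. Among the 29 genes listed at both times, the edgeR quasi-likelihood test of this change gave NCED3 an adjusted p of 0.618 (Benjamini-Hochberg), and 5 of the 29 genes passed 0.05. Wild type NCED3 averaged 9.33 ± 0.56 scaled counts per kilobase at 3 h and 4.40 ± 0.64 at 12 h (SD, n = 3), but these levels come from tables scaled separately and were not compared.

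The nearest profiles to NCED3 among the 84 other entries at 12 h were those of a conserved hypothetical gene (LOC_Os07g23120) at a distance of 0.2 log2 units, a chloride channel gene (LOC_Os12g25200) at 0.287 and a GRAS domain gene (LOC_Os05g49930) at 0.318. Their log2 fold changes were 1.74 ± 0.35, 1.77 ± 0.44 and 1.71 ± 0.24 (SE). The median distance of all entries was 1.51.

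The members belong to a list of 19 genes of the whole route, from carotenoid synthesis to breakdown of the hormone, of which 5 were listed at any time. At 3 h 2 of the 19 were called, both higher, which were NCED5 and NCED3, where 3.49% of all genes tested were called higher and 1.42% lower. At 6 h 1 was called higher and 2 lower, where the shares over all genes were 6.03% and 4.30%. At 12 h 1 was called higher, where they were 0.212% and 0.188%. As the members were chosen with their calls known, nothing is read from these counts. None of the 8 genes of carotenoid synthesis and none of the 3 other NCED genes was listed, nor was the zeaxanthin epoxidase gene. Of the 3 genes of the 8′-hydroxylase family, ABA8OX3 alone was listed, at 6 h. For the 14 genes never listed, whether they changed by less than the authors' thresholds or were too low to test is not known from these tables.

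Beside ABA8OX3, the genes of the list called at 6 h belong to the cytosolic steps, and they moved in opposite directions. The gene for a protein similar to molybdenum cofactor sulfurase (LOC_Os06g45860) was higher in csa. In Arabidopsis the enzyme of this kind, ABA3, supplies the cofactor that activates aldehyde oxidase for the last step of synthesis. The csa libraries held 635, 470 and 1025 raw counts of it, against 260, 158 and 339 in the wild type, without overlap, and the log2 fold change was 1.54 ± 0.38 (SE, n = 3). In the authors' deposited table its FDR was 1.11e-05, and the call was kept without any single library, at log2 fold changes between 1.23 and 1.75. It was lost with scaling computed over the listed genes alone, at 0.96 with TMM and 0.79 with DESeq2 size factors. More genes were listed as higher (1395) than as lower (993) at 6 h. Factors taken over them lowered fold changes in general. They shifted the median of all listed genes by -0.59 and -0.74, and this gene moved with that shift. Under the TMM and DESeq2 factors, 1428 and 1281 of the 2388 listed entries kept their calls. Why this gene lost its call was not tested.

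The gene for a protein similar to short-chain alcohol dehydrogenase (LOC_Os03g59610) was lower in csa. An enzyme of this type, ABA2 in Arabidopsis, converts xanthoxin to abscisic aldehyde. Its raw counts were 126, 128 and 116 in the mutant, against 223, 265 and 311, again without overlap. Scaled counts averaged 126 ± 12.4 and 261 ± 31.3 (SD, n = 3), a log2 fold change of -1.06 ± 0.13 (SE) with an FDR of 2e-05 in the authors' deposited table. The call was lost in the edgeR refit without csa replicate 1, at a log2 fold change of -1.09, and fell below the fold threshold of 1 without csa replicate 3 or wild type replicate 3, at -0.98 and -0.996.

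**Figure D4:**
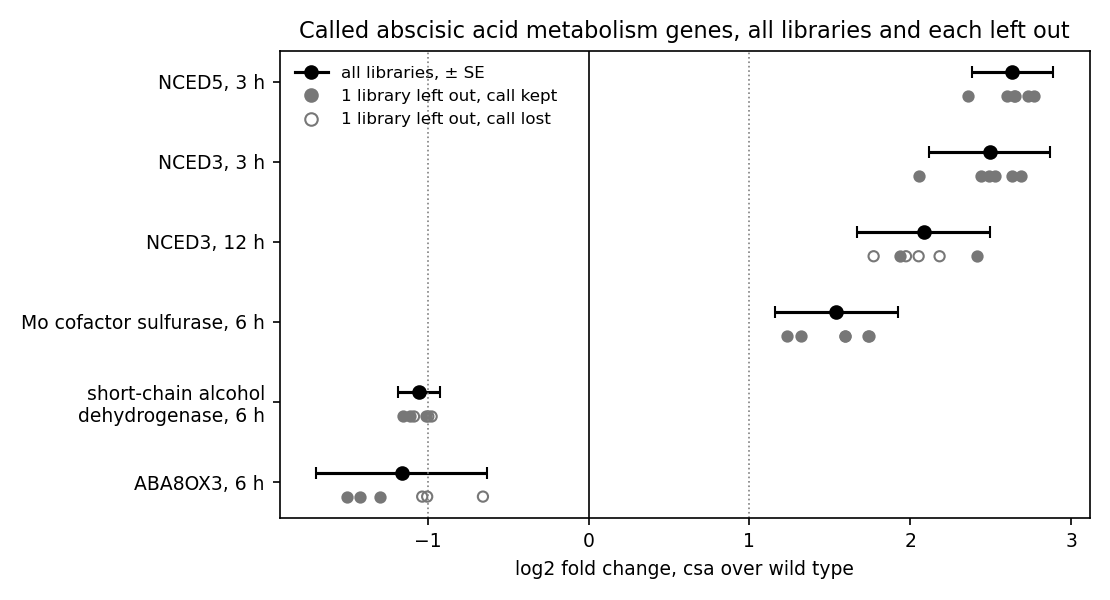
Log2 fold change, csa over wild type (horizontal axis), of the called genes of abscisic acid metabolism at each time they were listed. Black points with bars are values from all libraries with their SE (n = 3 per genotype), and grey circles are edgeR refits with 1 library left out, open where the call was lost. Dotted lines mark the authors' threshold of 1 in either direction. The NCED genes lie between 2.08 and 2.64, and ABA8OX3 ranges from -1.50 to -0.66 with single libraries left out.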

How the data were processed

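RNA sequencing of rice embryos gave 3 deposited tables, 1 per time. Per the file headers, each holds raw read counts per replicate, and the authors' log2 fold change, p-value and FDR. The submitters' processing notes name DESeq2 with no version. The sources used here give no aligner, counting tool, strand, build or treatment of reads shared between gene copies. Every count column matched a sample by name, and groups follow the titles.

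Library scaling was recovered as the factors for which ratios of mean scaled counts give the deposited fold changes (residual SD at most 0.00274 log2 units). How many genes were tested was worked out from the ranks in deposited p and FDR values (between 21239 and 21245 at 12 h). As depth is unknown, errors come from the replicate spread.

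Calls are the authors' own. As listed genes were chosen for their difference, a refit of them is no independent test. Listed genes were refitted with edgeR 4.0.16 (quasi-likelihood test, R 4.3.3), without a block, and a call was kept at a p no larger than the largest deposited p of its table (0.00694, 0.0117 and 2.55e-04), an absolute log2 fold change of at least 1 and the same direction. DESeq2 1.42.0 was an alternative. The fits were tested on simulated counts. A log2 change of 1 passed the p limit in 50%, 48% and 3.57% of changed genes at 3 h, 6 h and 12 h. With a log2 change of 2 these shares were 99%, 95.5% and 64.3%. Unchanged genes passed in at most 1.05%.

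Members and lists were chosen with earlier results of these data known. Named are the members, the listed genes of the 19-gene list, the 3 nearest profiles per member and time, listed genes whose locus number lies within 100 of a member's, CSA, SDR4, RAB16A and EM1. Names, gene spans and no positions were taken from RefSeq (assembly ASM3414082v1), which held all 3 members.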

Additional observations from a re-analysis of the deposited data

How the results depend on the processing

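Of the results recomputed under the alternatives, 147 were unchanged, 21 were no longer past the threshold, 8 counts moved and 2 values reversed. Unchanged values kept their direction and their side of the threshold, and unchanged counts stayed within 1.5 times. Means of log2(scaled count + 1) were judged by direction and by a shift below the replicate SD, with no threshold. The NCED3 to NCED5 ratio counts as unchanged throughout, but its test could not have passed, so its side was fixed in advance. Scaling by TMM or by DESeq2 size factors over the listed genes alone shifted the median fold change of all listed genes by -1.24 and -1.04 at 3 h, -0.59 and -0.74 at 6 h and -0.07 and -0.41 at 12 h. More genes were listed as higher than as lower in csa at each time, though at 12 h they were 45 against 40. What set the direction of these shifts was not tested. The members moved with these shifts and kept their direction. At 3 h NCED5 stood at 1.36 and 1.56 and NCED3 at 1.20 and 1.39 under these scalings, calls kept, and NCED3 at 12 h lost its call under DESeq2 size factors at 1.60. Under the same factors the change of the NCED3 effect from 3 h to 12 h reversed to 0.21. With single libraries left out it ranged from -0.72 to 0.0085, the last without csa replicate 2 at 3 h. The log2 fold change with single libraries left out ranged from -1.50 to -0.66 for ABA8OX3 at 6 h and from 1.77 to 2.42 for NCED3 at 12 h, with calls lost as given above. The number of list genes called ranged from 1 to 3 at 6 h and from 0 to 1 at 12 h, and at an FDR of 0.01 it was 2 at 6 h, without ABA8OX3, and 0 at 12 h. Under TMM and DESeq2 size factors over the listed genes the molybdenum cofactor sulfurase gene lost its call, at 0.96 and 0.79, as did the 3 further genes named below at 6 h, at values between 0.34 and 0.71, none with a change of sign. The cause of these changes was not tested.

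Whether replicate numbers pair the samples is not settled. Correlations over genes of same-numbered deviations from group means were -0.05, 0.22 and 0.24 at 3 h, -0.21, 0.29 and 0.18 at 6 h and 0.01, 0.08 and 0.04 at 12 h. Those between different numbers ran from -0.30 to 0.11 at 3 h, from -0.40 to 0.30 at 6 h and from -0.21 to 0.15 at 12 h. With the replicate block the edgeR refit gave log2 fold changes of 2.59 for NCED5 and 2.41 for NCED3 at 3 h, -1.09 for ABA8OX3 at 6 h and 1.96 for NCED3 at 12 h, all calls kept. It kept 1007, 2313 and 36 listed genes at the 3 times, against 1003, 2276 and 39 without the block. Within replicate numbers the NCED3 to NCED5 ratio gave -0.19, and the change of the NCED3 effect -0.44 with a replicate block within time. Counts of NCED3 at 12 h were low, with 10 to 13 reads per wild type library.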

Other observations

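Further genes that touch on the route of abscisic acid were found by their annotation at 6 h, after the values were seen, and none of them is in the list above. LOC_Os03g57690, annotated as similar to aldehyde oxidase-2, held 1654, 1822 and 2398 raw counts in the csa libraries against 802, 543 and 1167 in the wild type, a log2 fold change of 1.29 ± 0.28 (SE, n = 3). Aldehyde oxidases of other plants include the enzyme that turns abscisic aldehyde into the hormone. Close by in locus number, LOC_Os03g57660, annotated as similar to viviparous8, had 1460, 1397 and 1553 against 839, 486 and 548, a log2 fold change of 1.27 ± 0.27. A violaxanthin de-epoxidase family gene (LOC_Os01g51860), of a family that acts on a carotenoid upstream of the NCED step, stood at 271, 251 and 353 against 152, 146 and 121, a log2 fold change of 1.09 ± 0.19, and its call was lost in the edgeR refit without csa replicate 3 (0.98) or wild type replicate 3 (0.95). At this time 6.03% of all genes tested were called higher. All 3 were without overlap between genotypes, as were all but 32 of the 1395 higher genes.

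Among listed genes near the members in locus number, ABA8OX3 had neighbours that were higher and others that were lower in csa at 6 h. The alpha-amylase isozyme 3A gene (LOC_Os09g28400), next to it in the numbering, held 86, 240 and 266 raw counts in the mutant against 26, 9 and 26, a log2 fold change of 3.33 ± 0.55 (SE, n = 3). An AP2 domain gene (LOC_Os09g28440) stood at 2.22 ± 0.72 and an OB-fold gene (LOC_Os09g28370) at -1.69 ± 0.49. At 3 h a heat shock factor gene of the same stretch (LOC_Os09g28354) was at -1.15 ± 0.17, and the alpha-amylase identifier filled 2 entries, both higher, at 4.41 ± 0.70 and 4.28 ± 0.77. Near NCED5, a cation/H exchanger gene (LOC_Os12g42300) was at 1.04 ± 0.26 at 3 h, and near NCED3, a pyruvate dehydrogenase E1 beta gene (LOC_Os03g44300) at -1.01 ± 0.28 at 6 h.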
